A study of Drosophila melanogaster with 2 samples.

Results

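The genes described here run the cell division cycle: 11 genes of DNA replication (PCNA, Mcm2, Mcm3, Mcm5, Mcm6, Mcm7, dup, geminin, RnrL, RnrS and dUTPase), 5 regulators of the step from G1 to S phase (CycD, CycE, dap, E2f1 and Dp) and 19 genes of mitosis and cell separation (CycA, CycB, CycB3, Cdk1, stg, polo, aurA, aurB, fzy, BubR1, Incenp, pav, tum, sti, scra, Klp61F, ncd, cid and Rca1). The rule that defines them uses known function and no measured level, but the list was chosen with earlier results of these data known. All 35 were found by symbol among the 17472 named gene rows of the deposited count matrices. The cells came from dissociated brains of Drosophila melanogaster larvae in the third instar, captured in droplets and counted at the 3′ ends of transcripts. The MeOH library held methanol-fixed cells pooled from 7 lines of the DGRP, a panel of inbred lines founded from wild flies (numbered 45, 136, 382, 409, 502, 639 and 761, and called DGRP-45 and so on here), and the fresh library held unfixed cells of a hybrid based on DGRP-551. No transgene or drug is named for either library, so strain and fixation are what differs between them and cannot be told apart, with 1 library each. The 7 lines, separated by genotype in the deposited cell table, served as replicate units, and each line is 1 pool of cells within 1 library. The fresh cells carry the genotype code line_M1 in that table, and a methanol step stands in the protocol of the fresh sample as well, so the fresh group rests on the fixation field and the title.

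Neuroblasts (NB) are the stem cells of the fly brain. A type I NB divides asymmetrically to renew itself and to bud off a ganglion mother cell (GMC), which divides a single time into a pair of neurons or glia, while a type II NB first makes dividing intermediate progenitors. Before each S phase the transcription factor E2f1, with its partner Dp, turns on replication genes, cyclin E (CycE) drives entry into S phase, and dacapo (dap) inhibits cyclin E and its kinase. Entry into mitosis needs the phosphatase string (stg), which activates Cdk1 bound to its cyclins A, B and B3.

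The deposited cell table names 170 MeOH and 218 fresh GMC and 133 MeOH and 143 fresh NB, next to 43 and 45 Lamina cells, 103 and 77 glia (AST, ENS and CTX), 67 and 38 cells labelled SUR, and 36 and 69 Hey+ neurons. Clusters with only a number that passed a marker rule, with the cells named DCN and G-KC, made up the 1749 MeOH and 1724 fresh neurons. Clusters 1 and 31 passed that rule too and were kept apart as unnamed. The MeOH library held 13232788 unique molecular identifiers (UMIs, 1 per captured transcript) in 2715 cells, and the fresh library held 19752319 in 2341 cells. The median depth was 2829 UMIs in GMC, 7414 in NB and 3333 in neurons of the MeOH library, and 5536 in GMC, 14443 in NB and 6561 in neurons of the fresh library. Levels are given as CPM, the unit that scales the UMIs of a gene by the total UMIs of the summed cells, with exact Poisson 95% intervals where an interval is printed. CPM from 3′ counts are compared between cells for 1 gene or 1 fixed sum of genes, never between genes. The NB markers dpn and mira had 211.8 and 499 CPM in MeOH NB, against 5.96 and 15.3 CPM in MeOH neurons, and the GMC marker tap had 357 CPM in MeOH GMC, against 85.6 CPM in MeOH NB. Between GMC and NB the marker lists were mixed. Of 6 NB markers dpn, mira and grh were lower in GMC than in NB in both libraries (dpn had 40.0 CPM and mira 93.8 CPM in MeOH GMC), while ase, wor and insc were higher in GMC in both libraries. In the MeOH library ase had 199.8 CPM in GMC and 78.1 CPM in NB, wor 171 CPM in GMC and 154.5 CPM in NB, and insc 76.8 CPM in GMC and 29.1 CPM in NB. Of 5 GMC markers, which include ase and insc, all 5 were higher in MeOH GMC than in MeOH NB and 4 in the fresh library, where pros had 371 CPM in GMC and 448 CPM in NB. Their sum was 2405 CPM in MeOH GMC and 738 CPM in MeOH NB, but 16277 CPM in MeOH neurons. In the fresh library it was 1550, 704 and 10726 CPM in GMC, NB and neurons. As a sum these markers thus part GMC from NB and do not mark GMC against neurons. The GMC also held neuronal transcripts: all 11 neuronal markers in the MeOH library and 10 of 11 in the fresh library were higher in GMC than in NB. Their summed level was 3779 CPM in MeOH GMC, 1082 CPM in MeOH NB, 4452 CPM in MeOH Hey+ neurons and 9771 CPM in MeOH neurons, and most of it in GMC came from elav and fne. In the MeOH library elav had 1661 CPM in GMC and 329 CPM in NB, and fne had 1554 CPM in GMC and 382 CPM in NB. repo had 162 CPM in MeOH glia, against 3.11 CPM in MeOH neurons, and the SUR cells held blood cell transcripts, with He at 84.1 CPM in the MeOH library and 819 CPM in the fresh library.

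Summed over the genes of each group, the replication group and the mitosis group divided the brain in different ways. The replication group had 1156 CPM (1075 to 1241) in MeOH GMC, 4211 CPM (4096 to 4329) in MeOH NB, 1132 CPM in MeOH Lamina, 1084 CPM in MeOH glia and 361 CPM (347 to 375) in MeOH neurons. The mitosis group had 2465 CPM (2346 to 2589) in MeOH GMC, 3045 CPM (2947 to 3145) in MeOH NB, 3496 CPM in MeOH Lamina, 695 CPM in MeOH glia and 243 CPM (232 to 255) in MeOH neurons. Replication transcripts were thus concentrated in NB, while mitosis transcripts stood at similar heights in GMC, NB and Lamina. The fresh library had the same order for GMC, NB and neurons: the replication group had 1219, 4899 and 292 CPM there, and the mitosis group 3098, 3835 and 203 CPM. In the fresh Lamina the replication group had 769 CPM and the mitosis group 2714 CPM. PCNA and dUTPase carried much of the replication sum and stg much of the mitosis sum in Lamina. Without PCNA and dUTPase the replication group had 476 CPM in MeOH GMC, 1823 CPM in MeOH NB, 458 CPM in MeOH Lamina and 119.7 CPM in MeOH neurons. Without stg the mitosis group had 1921 CPM in MeOH GMC, 2413 CPM in MeOH NB, 1443 CPM in MeOH Lamina and 210.0 CPM in MeOH neurons.

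**Figure D1:**
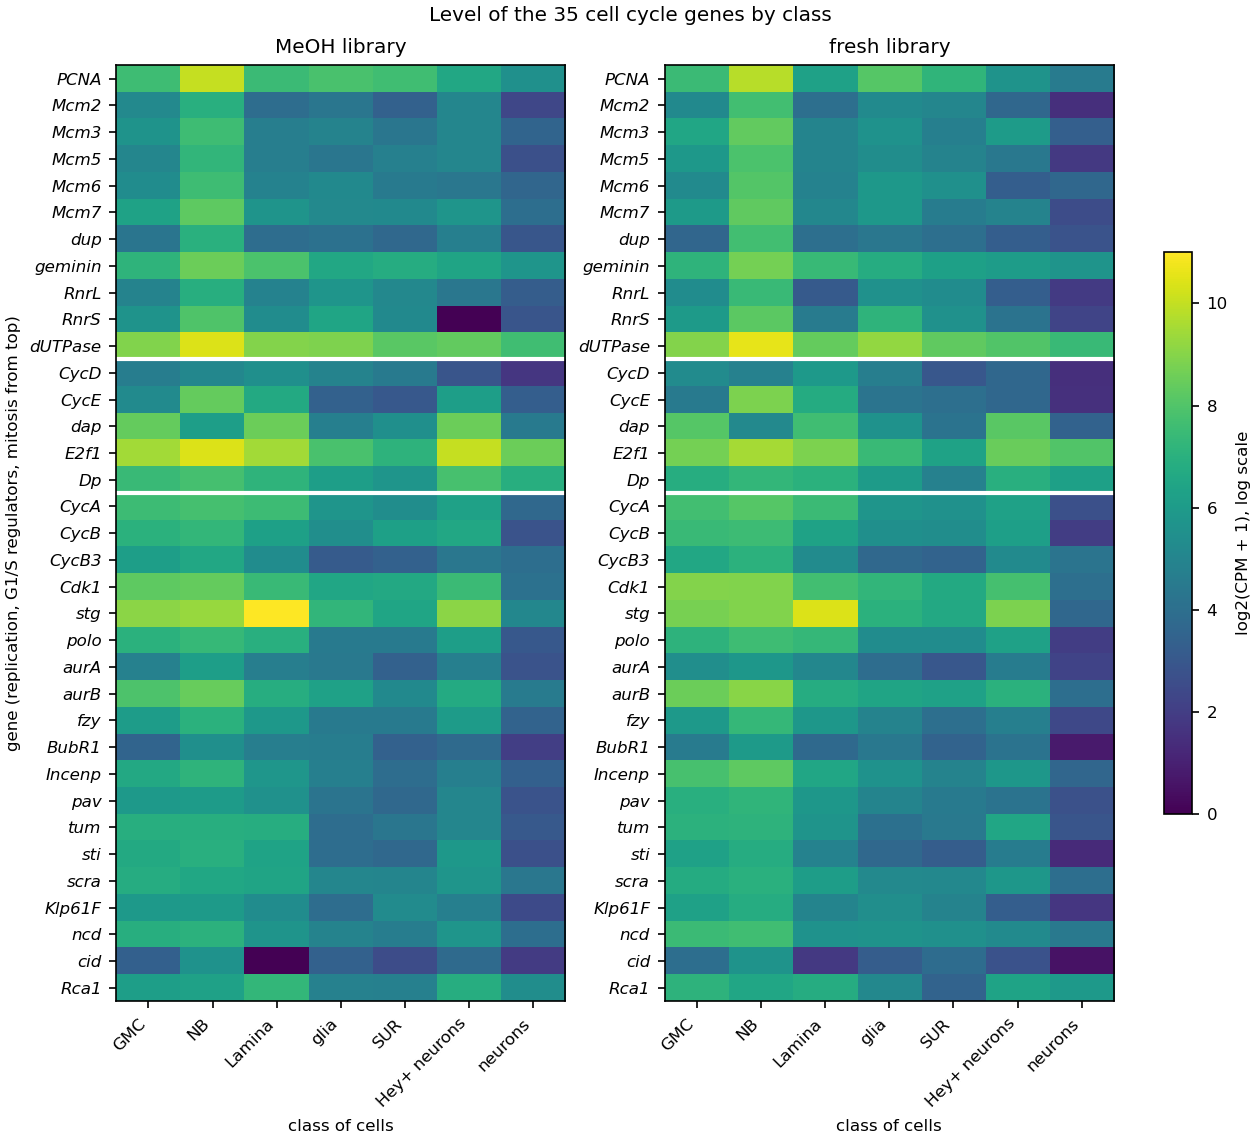
Level of each of the 35 genes, as log2(CPM + 1) of summed counts on a colour scale, in GMC, NB, Lamina, glia, SUR cells, Hey+ neurons and neurons of the MeOH and the fresh library. White lines part the replication group, the G1/S regulators and the mitosis group; the replication rows are brightest in NB, dap is dim in NB, and stg is brightest in Lamina.

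**Figure D2:**
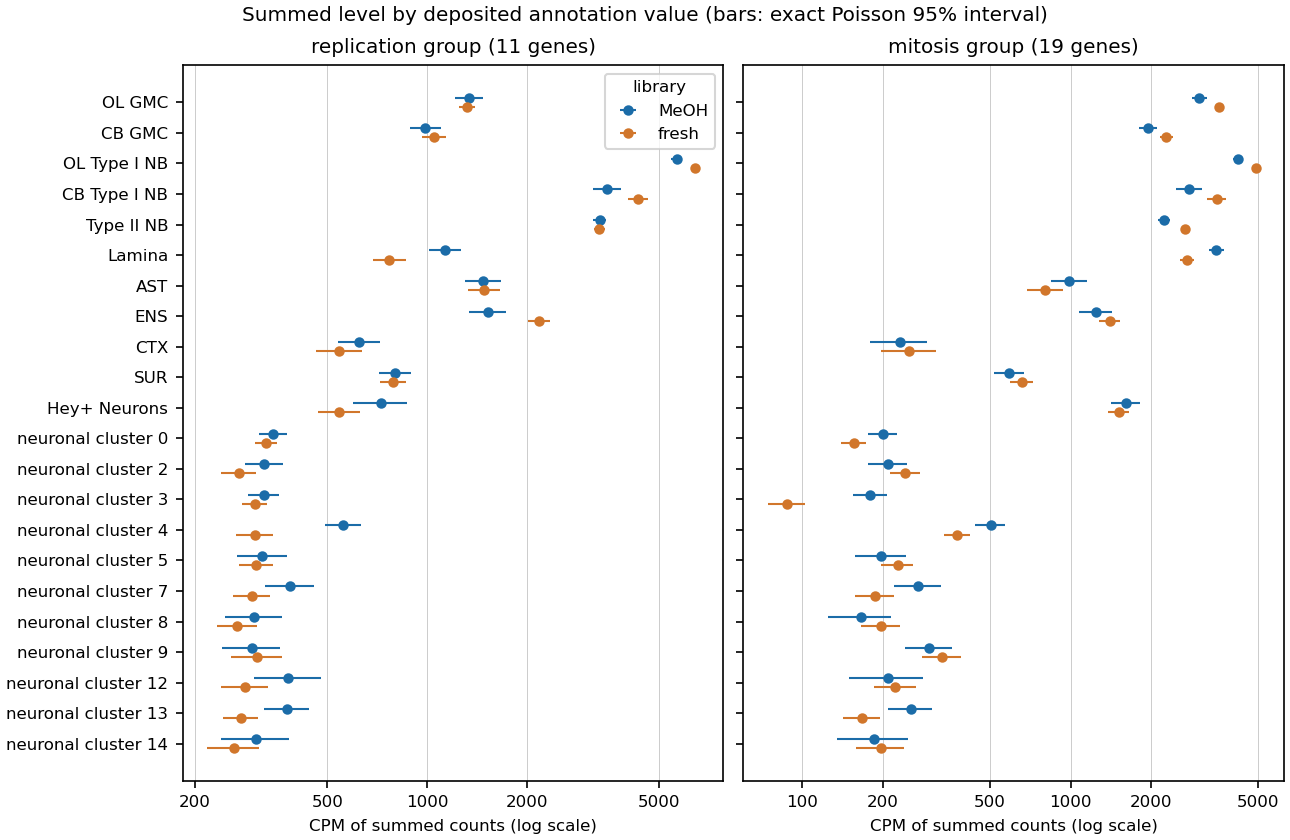
Summed CPM of the replication group and the mitosis group (log scale, exact Poisson 95% intervals) by deposited annotation value, for the MeOH and the fresh library. Neuronal clusters with at least 100 cells over both libraries are drawn; OL Type I NB have the highest replication and mitosis levels in both libraries, and CTX glia lie below AST and ENS glia.

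The share of cells with a UMI was compared with every cell thinned to 2000 UMIs, a depth that all cells reached. A replication group UMI was then found in 82.4% (exact 95% interval 75.8 to 87.8) of MeOH GMC, 100% (97.3 to 100) of MeOH NB and 50.8% (48.4 to 53.1) of MeOH neurons, and in 85.3%, 99.3% and 42.1% of fresh GMC, NB and neurons. A mitosis group UMI was found in 95.9% (91.7 to 98.3) of MeOH GMC, 99.2% (95.9 to 100) of MeOH NB and 34.8% (32.5 to 37.0) of MeOH neurons, and in 99.5%, 100% and 32.5% of fresh GMC, NB and neurons. Before thinning the replication group shares were 90.0%, 100% and 69.6% in MeOH GMC, NB and neurons. Neurons do not divide, and their shares are the background beside which those of GMC and NB stand. They differed widely between genes. At this depth dUTPase was found in 32.7% of MeOH neurons, geminin in 10.6%, PCNA in 8.86%, E2f1 in 50.3% and Dp in 21.4%, whereas CycB was found in 1.03%, RnrS in 1.09% and CycE in 1.89%. Single replication genes set GMC and NB well apart: PCNA was found in 27.6% (21.1 to 35.02) of MeOH GMC and 79.7% (71.9 to 86.2) of MeOH NB, and in 28.9% of fresh GMC and 79.7% of fresh NB. Cdk1 was found in 47.1% of MeOH GMC and 44.4% of MeOH NB, and in 54.1% of fresh GMC and 60.1% of fresh NB. These intervals and the Poisson intervals cover counting error only.

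The progenitors, NB and GMC together, were first set against neurons over the 7 lines (303 and 1749 cells). Counts were summed per line and class and fitted with edgeR's quasi-likelihood test with the line as block, and a gene was called at a Benjamini-Hochberg adjusted p under 0.05. The class names come from clustering of the same counts, so these p-values measure how well a difference repeats over lines and are no independent evidence for the classes. Of the 35 genes 32 passed the filter on low counts, and all 32 were higher in NB and GMC. The filter asks for enough counts in as many sums as a single class holds. Genes scarce in neurons, such as CycE and CycB, thus passed only through NB and GMC, and a call for them could only be higher. Of the 4396 genes tested 32.3% were higher, 33.4% were lower and 65.7% were called in either direction. CycD, BubR1 and cid were under the filter. All 35 were higher in NB and GMC in 7 of 7 lines, against 12.2% of the 10752 genes with a count. Most of those genes were under the filter, and a gene with few counts can seldom differ in the same direction in every line. The median log2 difference was 3.81 for the replication group, 3.82 for the mitosis group and 2.32 for the G1/S regulators, against 0.01 for all genes tested.

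The size of that difference ran from 1.77-fold for Dp to 27.3-fold for CycE. CycE had a lowest, median and highest level of 125, 237 and 294 CPM over the lines in NB and GMC, against 3.80, 10.9 and 16.1 CPM in neurons. The groups did not overlap, and the log2 difference of CycE was 4.77 ± 0.22 (SE). CycB, the cyclin that accompanies Cdk1 into mitosis, had 96.2, 150.2 and 197 CPM in NB and GMC, against 2.41, 6.43 and 9.89 CPM in neurons, a log2 difference of 4.62 ± 0.20. PCNA, the sliding clamp of DNA polymerase, had 493, 783 and 874 CPM in NB and GMC, against 40.7, 44.6 and 56.3 CPM in neurons. Its log2 difference was 4.07 ± 0.12 (edgeR quasi-likelihood, Benjamini-Hochberg adjusted p = 6.66e-14). The smallest differences belonged to genes that neurons also held. Dp had 173, 183 and 274 CPM in NB and GMC, against 111, 116 and 129 CPM in neurons, a log2 difference of 0.82 ± 0.11. Rca1, which restrains the anaphase-promoting complex in flies, had 61.01, 75.2 and 99.2 CPM in NB and GMC, against 31.6, 37.8 and 52.2 CPM in neurons, a log2 difference of 0.96 ± 0.16. E2f1 had 703, 1239 and 1308 CPM in NB and GMC, against 310.3, 374 and 415 CPM in neurons, a log2 difference of 1.65 ± 0.09. For these genes too the lines of each group did not overlap. In the fresh library, where no test was possible, the ratio of NB and GMC to neurons lay above 1 for all 35 genes, from a log2 of 0.86 for Rca1 to 7.24 for CycE.

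Other genes of the same pathways, under the same filter and its limit, gave a similar picture. Of 38 further replication genes in the files 19 were tested and all 19 were higher in NB and GMC. Of 51 further mitosis genes 36 were tested, 31 were higher and 1, tacc, was lower. Of 19 further G1/S and checkpoint genes 10 were tested and 6 were higher. The genes with the lowest p were Cks30A (log2 difference 4.35 ± 0.15), a subunit of Cdk complexes, feo (3.12 ± 0.13), a protein of the central spindle, dgt2 (3.80 ± 0.18), of the augmin complex, RPA3 (2.17 ± 0.11), of the single-strand DNA binding complex, and borr (4.34 ± 0.22), of the chromosomal passenger complex. tacc, a centrosomal protein, averaged 87.0 ± 19.9 CPM in NB and GMC, against 151 ± 22.7 CPM in neurons (SD, n = 7 lines each).

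GMC were then set against NB over the same lines (170 and 133 cells, 13 to 34 per line and class). Of the 35 genes 25 passed the filter; 12 were lower in GMC and 1 was higher. Over the 1478 genes tested 14.4% were lower and 17.3% were higher, 31.7% in all. The replication group and the mitosis group differed in how far they did so. Of the replication group 8 of 11 genes were tested and all 8 were lower, with a median log2 difference of -2.003. Those scarce in GMC, such as Mcm3, Mcm5 and Mcm6, passed the filter only through NB, so a call for them could only be lower. All 11 were lower in 7 of 7 lines, against 6.15% of the 8809 genes with a count. Most of those genes were under the filter, and 1.92% of the 8809 were higher in every line. Of the mitosis group 13 of 19 genes were tested and 2 were lower, with a median log2 difference of -0.14, and 4 of 19 were lower in every line. The median over all genes tested was 0.01. NB were sequenced more deeply than GMC, and their depth is given above; with every cell thinned to 2000 UMIs, 9 of the 35 genes could be tested, 6 were lower in GMC and 1 was higher, against 9.64% lower and 12.4% higher of the 581 genes tested at that depth. Neuronal markers moved with this comparison, with a summed level of 3779 CPM in MeOH GMC and 1082 CPM in MeOH NB, and of 2236 CPM in fresh GMC and 736 CPM in fresh NB; their part in the results was not tested. With at least 20 cells per line and class only 2 lines remained; 11 genes were lower, 8 of them among the 12, and 1 was higher, against 6.94% lower and 6.99% higher of 2117 genes. There Mcm5 (edgeR adjusted p = 0.0531), geminin (log2 difference -0.79, edgeR adjusted p = 0.0506), fzy and aurB lost their calls.

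PCNA had a lowest, median and highest level of 131, 155 and 317 CPM over the lines in GMC, against 656, 1002 and 1446 CPM in NB. Every line had less in GMC, no GMC value reached an NB value, and the log2 difference was -2.35 ± 0.17 (edgeR quasi-likelihood, Benjamini-Hochberg adjusted p = 1.48e-07). The Mcm genes encode the ring-shaped helicase that opens the double strand. Mcm7 (FBgn0020633, on the plus strand of chromosome 3L from 8891596 to 8894310, build dm6) had 50.1, 69.8 and 118 CPM in GMC, against 254, 295 and 390.0 CPM in NB, a log2 difference of -1.82 ± 0.21. Mcm3, Mcm5 and Mcm6 were lower in GMC as well, with log2 differences of -1.82 ± 0.22, -2.18 ± 0.35 and -2.18 ± 0.27, and their lines did not overlap between the classes. Mcm2 was under the filter and had 9.36, 26.3 and 62.5 CPM in GMC, against 71.9, 132 and 176 CPM in NB.

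Genes that license origins and supply nucleotides followed. dup, the fly Cdt1 that loads the helicase onto DNA, had 0, 16.7 and 43.7 CPM in GMC, against 43.3, 126 and 176 CPM in NB; it was under the filter, and its GMC and NB values overlapped slightly at the margin. geminin, which binds and holds back Cdt1, had 66.7, 140.4 and 177 CPM in GMC, against 279, 393 and 492 CPM in NB, a log2 difference of -1.29 ± 0.18. The smallest of the 8 tested differences was thus that of the licensing inhibitor. RnrS, the small subunit of ribonucleotide reductase, had 18.7, 50.1 and 87.3 CPM in GMC, against 92.8, 216 and 409 CPM in NB, a log2 difference of -2.23 ± 0.26. RnrL, the large subunit, was under the filter, with 13.2, 28.1 and 43.7 CPM in GMC, against 49.5, 119.5 and 199.8 CPM in NB. dUTPase, which keeps uracil out of DNA, had 365, 464 and 664 CPM in GMC, against 1176, 1303 and 1684 CPM in NB, a log2 difference of -1.38 ± 0.12. The adjusted p-values of the 8 tested replication genes ran from 1.48e-07 for PCNA to 0.000212 for Mcm5 (edgeR quasi-likelihood, Benjamini-Hochberg). In the fresh library all 11 ratios of GMC to NB were below 1, from a log2 of -1.55 for geminin to -4.14 for dup.

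Of the regulators of S phase entry, CycE and E2f1 were called lower in GMC and dap was called higher. CycE (FBgn0010382, on the minus strand of chromosome 2L from 15727581 to 15748150) had 0, 12.9 and 118 CPM in GMC, against 179, 329.7 and 465 CPM in NB, a log2 difference of -3.15 ± 0.37 (edgeR quasi-likelihood, Benjamini-Hochberg adjusted p = 1.24e-05). All MeOH GMC together held 24 CycE UMIs, so the wide spread of its GMC levels between lines rests on few counts. Every GMC value still stayed below every NB value. Being scarce in GMC, CycE passed the filter only through NB, so a call for it could only be lower. dap, the inhibitor of cyclin E and its kinase, had 197, 250.0 and 568 CPM in GMC, against 22.1, 80.9 and 94.3 CPM in NB. It was higher in GMC in 7 of 7 lines with no overlap, with a log2 difference of 2.32 ± 0.23 (edgeR quasi-likelihood, Benjamini-Hochberg adjusted p = 2.06e-06). Being scarce in NB, dap passed the filter only through GMC, so a call for it could only be higher. In the fresh library CycE had 21.7 CPM in GMC and 452 CPM in NB, and dap had 275 CPM in GMC and 35.7 CPM in NB. E2f1 had 576, 669 and 958 CPM in GMC, against 749, 1403 and 1988 CPM in NB; it was lower in GMC in 7 of 7 lines, the ranges overlapped between lines, and the log2 difference was -0.81 ± 0.15. Its partner Dp, at 132, 177 and 233 CPM in GMC and 162, 205 and 297 CPM in NB, was not called. CycD, the G1 cyclin, was under the filter with 0, 26.3 and 64.5 CPM in GMC and 9.51, 18.9 and 62.8 CPM in NB.

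**Figure D3:**
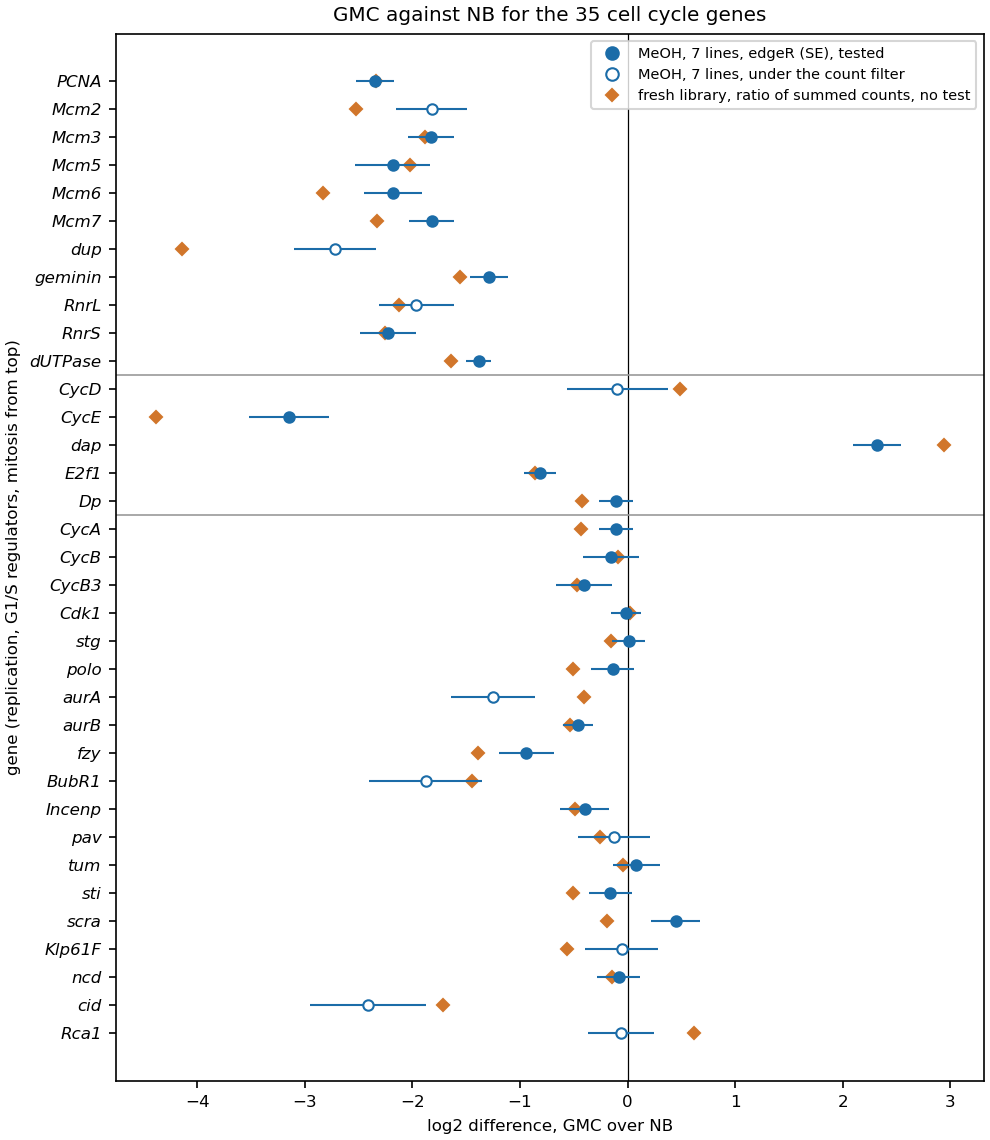
Log2 difference of GMC over NB for each of the 35 genes: circles are the 7 lines of the MeOH library (edgeR, bars ± SE; open circles are genes under the count filter, fitted without it), and diamonds are the ratio of summed counts in the fresh library. All 11 replication genes lie left of 0 in both libraries, dap lies right of 0, and many mitosis genes lie near 0.

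The tested mitosis genes that prepare and drive entry into M phase were not called between GMC and NB. stg (FBgn0003525, on the minus strand of chromosome 3R from 29251826 to 29255800) had 306, 487 and 802 CPM in GMC and 371, 538 and 929.6 CPM in NB, a log2 difference of 0.01 ± 0.15. Cdk1 had 219, 299.9 and 419 CPM in GMC and 243, 349 and 458 CPM in NB, a log2 difference of -0.02 ± 0.14. For both genes the values of the lines were interleaved. The difference of stg had opposite signs in optic lobe and central brain cells, as given below. CycA had a log2 difference of -0.11 ± 0.16, CycB of -0.15 ± 0.26, CycB3 of -0.40 ± 0.26 and polo, a kinase of mitotic entry and exit, of -0.14 ± 0.20, and none was called. The same held for genes of the spindle and of cell separation, with log2 differences of 0.08 ± 0.22 for tum, a subunit of the centralspindlin complex, -0.16 ± 0.20 for sti, the citron kinase, 0.45 ± 0.22 for scra, the anillin of the contractile ring, and -0.08 ± 0.20 for ncd, a minus-end kinesin. Incenp, the scaffold of the chromosomal passenger complex, was at -0.40 ± 0.23. A difference that misses the threshold does not show equal levels.

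Only fzy and aurB were called lower in GMC within the mitosis group. These 2 of 13 tested genes are a share near the 14.4% lower over all genes tested. fzy, the Cdc20 protein that switches on the anaphase-promoting complex, had 33.4, 52.1 and 131 CPM in GMC, against 89.9, 128 and 171 CPM in NB, and it was lower in 7 of 7 lines, although the ranges overlapped, with a log2 difference of -0.94 ± 0.26 (edgeR quasi-likelihood, Benjamini-Hochberg adjusted p = 0.0106). aurB, the kinase of the passenger complex, had 149.8, 251 and 314 CPM in GMC, against 248, 345 and 447 CPM in NB, and it was lower in 6 of 7 lines with overlapping ranges and a log2 difference of -0.46 ± 0.14 (edgeR quasi-likelihood, Benjamini-Hochberg adjusted p = 0.0201). Both calls were lost with DESeq2, at adjusted p = 0.125 for fzy and 0.192 for aurB, and the aurB call was also lost without DGRP-136, at an edgeR adjusted p of 0.0717. With at least 20 cells per line and class the edgeR adjusted p was 0.293 for fzy and 0.208 for aurB, and in central brain cells aurB had a log2 difference of -0.16 (edgeR adjusted p = 0.679). The remaining 6 mitosis genes were under the filter. aurA (26.3 ± 16.5 CPM in GMC and 67.9 ± 21.7 CPM in NB, SD, n = 7 lines), the checkpoint kinase BubR1 (11.8 ± 8.18 and 43.8 ± 15.3 CPM in GMC and NB) and the centromere histone cid (8.27 ± 9.59 and 51.3 ± 28.4 CPM in GMC and NB) were lower in GMC in 7 of 7 lines. pav, the kinesin of centralspindlin (59.8 ± 21.7 and 64.2 ± 31.4 CPM in GMC and NB), Klp61F, the kinesin that pushes spindle poles apart (54.4 ± 29.8 and 60.3 ± 15.6 CPM), and Rca1 (73.0 ± 20.2 and 77.9 ± 18.1 CPM) had no common direction over the lines. Without the filter 18 of the 35 genes were lower and 1 was higher in GMC, against 6.35% lower and 3.85% higher of 8809 genes. The 18 were the 12 above with Mcm2, dup, RnrL, aurA, BubR1 and cid.

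**Figure D4:**
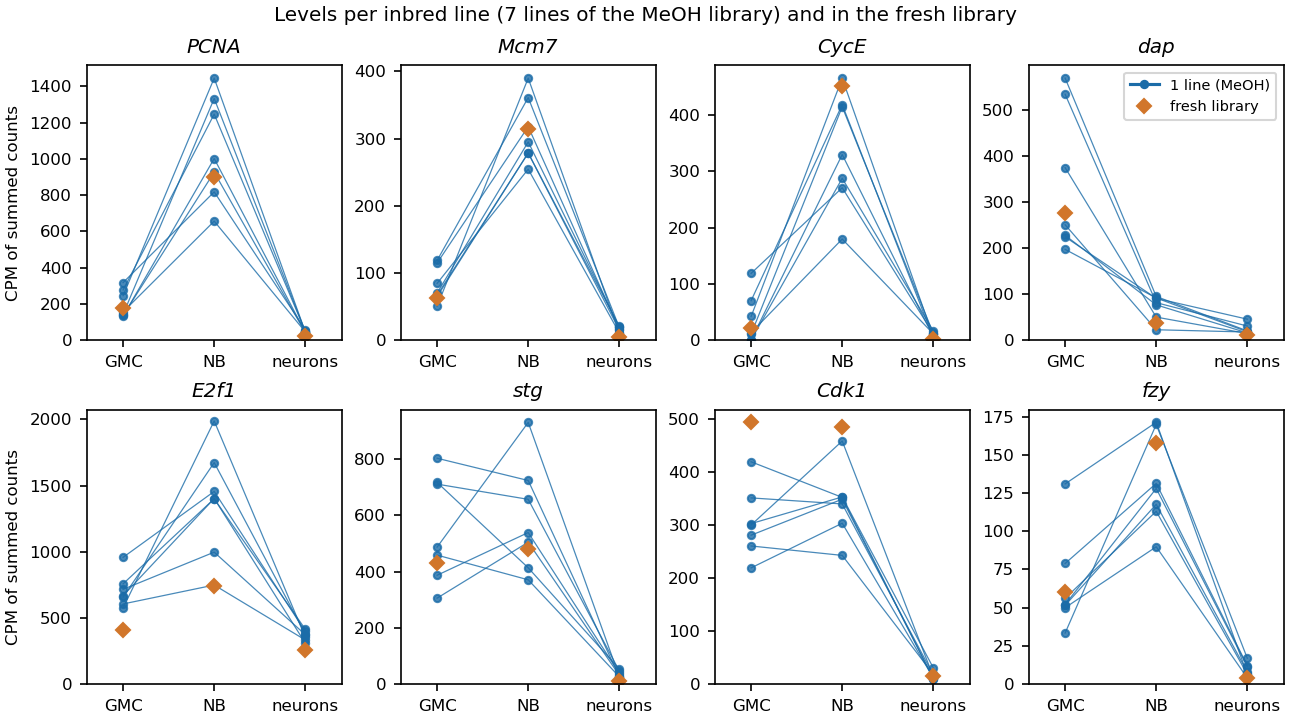
CPM of 8 genes in GMC, NB and neurons, with 1 blue line for each of the 7 lines of the MeOH library and diamonds for the fresh library; each panel has its own axis from 0. PCNA, Mcm7, CycE, E2f1 and fzy peak in NB, dap peaks in GMC, and stg and Cdk1 lie at similar levels in GMC and NB.

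Among other genes of these pathways, under the same filter and its limit, 4 of 5 replication genes that could be tested were lower in GMC and none was higher. asf1, a histone chaperone, averaged 75.0 ± 26.9 CPM in GMC, against 321 ± 98.6 CPM in NB (SD, n = 7 lines each), a log2 difference of -1.995 ± 0.21. RPA2 and RPA3, of the single-strand DNA binding complex, had log2 differences of -1.74 ± 0.26 and -0.93 ± 0.14. Of 17 other mitosis genes 2 were higher and 3 were lower, shares near the 17.3% higher and 14.4% lower over all genes tested. fzr, the Cdh1-type activator that takes over the anaphase-promoting complex at mitotic exit and in G1, averaged 134 ± 42.4 CPM in GMC, against 49.1 ± 22.9 CPM in NB. It was higher in 7 of 7 lines, with a log2 difference of 1.61 ± 0.26 (edgeR quasi-likelihood, Benjamini-Hochberg adjusted p = 0.000241). Cks30A averaged 102 ± 44.3 CPM in GMC, against 326.5 ± 53.5 CPM in NB, a log2 difference of -1.62 ± 0.19. Of 3 other G1/S and checkpoint genes 1, the checkpoint kinase grp, was lower, at -0.97 ± 0.20.

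The classes mix cells of the optic lobe (OL) and the central brain (CB), and both the replication group and the mitosis group differed between them. The replication group had 5631 CPM in MeOH and 6407 CPM in fresh OL Type I NB, 3482 and 4316 CPM in CB Type I NB, and 3303 and 3299 CPM in Type II NB. The mitosis group had 4216 and 4912 CPM in OL Type I NB, 2774 and 3505 CPM in CB Type I NB, and 2233 and 2675 CPM in Type II NB. OL GMC had 1338 and 1319 CPM of the replication group and 3020 and 3579 CPM of the mitosis group, against 987 and 1049 CPM and 1950 and 2277 CPM in CB GMC. In both libraries the optic lobe cells were the higher ones of their kind. CB Type I NB rest on 16 MeOH and 10 fresh cells. CycE had 606 and 687 CPM in OL Type I NB, 261 and 263 CPM in CB Type I NB and 162 and 223 CPM in Type II NB, and E2f1 had 2362 and 1085 CPM, 902 and 386 CPM, and 719 and 422 CPM in the same order. Splits by region were chosen after seeing the data. In OL cells alone, over 7 lines, 14 of the 35 genes could be tested between GMC and Type I NB, 8 were lower in GMC and dap was higher (log2 difference 1.66 ± 0.30), against 9.04% lower and 9.3% higher of 774 genes. In CB cells alone, Type II NB included, 7 could be tested and 3 were lower in GMC, namely PCNA (-2.20 ± 0.25), dUTPase (-1.37 ± 0.17) and E2f1 (-0.65 ± 0.22), against 14.9% lower and 14.8% higher of 737 genes. stg was not called in either region, with a log2 difference of -0.56 ± 0.20 in OL cells and 0.58 ± 0.24 in CB cells, and the difference between the regions was not tested.

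Cells labelled Lamina, after the first neuropil of the optic lobe, had the highest stg levels of the named classes in both libraries. stg had 2052 CPM (1888 to 2227) in the MeOH Lamina, against 544 CPM in MeOH GMC and 632 CPM in MeOH NB. In the fresh Lamina it had 1352 CPM (1240 to 1472), against 431 CPM in GMC and 480 CPM in NB. It was found in 41 of 43 MeOH and 44 of 45 fresh Lamina cells. dap had 365 CPM in the MeOH and 199 CPM in the fresh Lamina. PCNA had 179 and 76.4 CPM there and Cdk1 172 and 204 CPM, and no cid UMI was found in the MeOH Lamina, where 3 UMIs would be 10.7 CPM. With 1 to 17 Lamina cells per line, no test over lines was made. Hey+ neurons, named for the Notch target Hey, had 724 MeOH and 543 fresh CPM of the replication group and 1609 and 1511 CPM of the mitosis group. dap had 368 and 291 CPM and stg 549 and 456 CPM in Hey+ neurons, levels near those in GMC (334 and 275 CPM for dap, 544 and 431 CPM for stg), while neurons had 21.4 and 9.94 CPM of dap and 33.2 and 11.7 CPM of stg. In the MeOH Hey+ neurons 1 of the 36 cells held 20.1% of the mitosis group UMIs.

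Glia were divided by subtype. The replication group had 1470 MeOH and 1485 fresh CPM in AST, 1522 and 2171 CPM in ENS, and 625 and 542 CPM in CTX cells. The mitosis group had 988 and 803 CPM in AST, 1243 and 1400 CPM in ENS, and 231 and 251 CPM in CTX cells. In AST and ENS glia the replication group thus lay above its level in GMC and the mitosis group below it, and in CTX glia the mitosis group lay near its level in neurons. In ENS cells RnrS had 146 and 226 CPM and stg 406 and 247 CPM, and in CTX cells RnrS had 33.95 and 75.5 CPM and stg 20.4 and 27.5 CPM. CycE had 9.61 and 18.1 CPM over all glia, against 8.67 and 1.84 CPM in neurons. Glial counts are small, and 1 of 47 MeOH CTX cells held 24.5% and 1 of 23 fresh CTX cells 34.2% of the replication group UMIs.

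Neurons held a low level of both groups that was not even across clusters. Cluster 3, with 184 MeOH and 163 fresh cells, had 180 and 87.5 CPM of the mitosis group and 322 and 302 CPM of the replication group. Cluster 4, with 137 and 169 cells, had 504 CPM (442 to 572) and 378 CPM (336 to 423) of the mitosis group, and 558 and 302 CPM of the replication group. Its cells were shallow, with a median of 2582 and 4293 UMIs. Cluster 34 had 1562 and 424 CPM of the mitosis group, but on 27 and 28 UMIs in 7 and 15 cells, and 59.3% of the MeOH UMIs came from 1 cell. Without stg its mitosis group had 347 and 197 CPM. Without clusters 4 and 34, left out after seeing the data, the comparison of NB and GMC with neurons called 32 genes, all 32 of them called before. The unnamed cluster 1, with 397 MeOH and 13 fresh cells, had 975 and 1059 CPM of the replication group and 921 and 1261 CPM of the mitosis group, and it held 18.7% of the replication group UMIs of all MeOH cells. What these cells are was not tested, and counting clusters 1 and 31 as neurons moved the MeOH neurons to 514 CPM of the replication group and 419 CPM of the mitosis group.

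Within progenitors, single cells were compared at a depth of 3000 UMIs, which 68 of 170 MeOH GMC, 123 of 133 MeOH NB and all fresh GMC and NB reached. The median GMC held 3 replication group UMIs in both libraries and 6 (MeOH) or 10 (fresh) mitosis group UMIs. The median NB held 12 and 14 replication group UMIs and 9 and 12 mitosis group UMIs. OL Type I NB held a median of 18 replication group UMIs in both libraries, and Type II NB 8 and 7. Across cells, which share libraries and depth and are not independent replicates, the Pearson correlation of the 2 sums was 0.60 in MeOH NB and 0.66 in fresh NB, and 0.34 in MeOH GMC and 0.19 in fresh GMC. Within OL Type I NB it was 0.48 and 0.45.

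**Figure D5:**
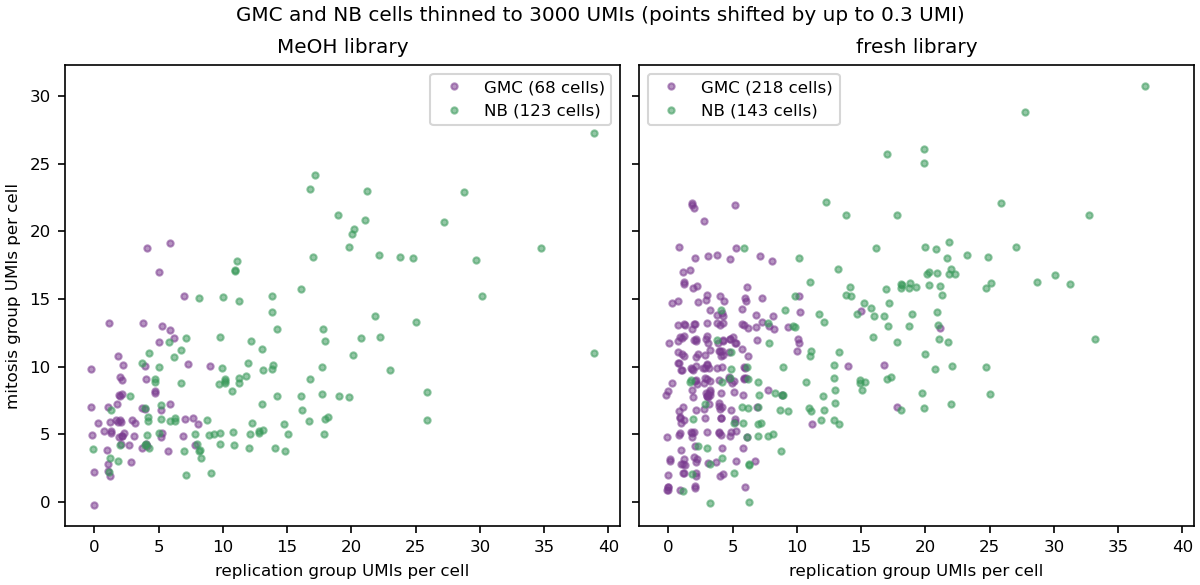
Replication group UMIs (horizontal) and mitosis group UMIs (vertical) per cell, with each GMC and NB thinned to 3000 UMIs, in the MeOH and the fresh library; points are shifted at random by up to 0.3 UMI so that they do not hide each other. GMC crowd at few replication UMIs over a range of mitosis UMIs, and NB spread along both axes.

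Progenitors with a PCNA UMI at that depth (133 cells) were set against those without one (58 cells) over the 7 lines. GMC made up 16.5% of the cells with and 79.3% of the cells without a PCNA UMI, so this split follows the classes closely. PCNA averaged 200 CPM in MeOH GMC over the lines. A GMC at that level often holds no PCNA UMI at this depth by sampling alone. Cells with or without PCNA are therefore only cells with or without a PCNA UMI, and those without one include cells that express PCNA. A lack of a call cannot show that a gene does not accompany PCNA. Of the other 34 genes 5 passed the filter and 3 were higher in cells with PCNA; over the 455 genes tested 5.27% were higher and 5.49% lower, 10.8% in all. dUTPase averaged 1309 ± 214 CPM in cells with PCNA, against 520.2 ± 199 CPM in cells without it (SD, n = 7 lines each), a log2 difference of 1.30 ± 0.21. E2f1 averaged 1394 ± 291 CPM in cells with PCNA, against 650 ± 237 CPM in cells without it, a log2 difference of 1.0002 ± 0.17. aurB was higher in 6 of 7 lines, with a log2 difference of 1.05 ± 0.28 (edgeR quasi-likelihood, Benjamini-Hochberg adjusted p = 0.0198), and its call was lost without DGRP-502 or DGRP-761 (edgeR adjusted p = 0.0672 and 0.0673), with DESeq2 (adjusted p = 0.115) and at 2000 UMIs per cell, where its log2 difference was 0.44 (edgeR adjusted p = 0.247). At 2000 UMIs the log2 difference of E2f1 was 0.62, still past the threshold. stg, at 0.56 ± 0.21, and Cdk1, at -0.09 ± 0.24, were not called. RPA3 was the only other pathway gene called, higher by 1.06 ± 0.24. Without the filter 12 genes were higher, among them Mcm3, Mcm5, Mcm6, Mcm7, dup, geminin, RnrS and CycE, and dap was lower, against 1.41% higher and 0.602% lower of 7808 genes. With line and class as blocks, an alternative chosen after seeing the data, none of the 35 genes passed the filter and 0 of 190 genes were called. In the fresh library the split could be read within a class, without a test: 121 of 143 NB and 81 of 218 GMC held a PCNA UMI. Among NB dup, picked from the list, had 242 CPM in cells with PCNA and 90.9 CPM in cells without it, and among GMC 41.2 and 2.43 CPM. These dup values rest on few UMIs, above all in GMC without PCNA, so the size of the difference is uncertain.

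Progenitors were split by CycB in the same way. CycB averaged 147 CPM in NB and GMC over the lines. At 3000 UMIs a cell at that level often holds no CycB UMI by sampling alone. The cells without a UMI therefore include cells that express CycB, and a lack of calls cannot show that no gene accompanies it. Cells with a CycB UMI (67) and without one (124) held 28.4% and 39.5% GMC. Of 541 genes tested 0% were called by edgeR's quasi-likelihood test (33 had an unadjusted p under 0.05, of which 18 were higher and 15 lower), and DESeq2 called 0 as well. Of the 7 genes of the list that passed the filter, CycE (log2 difference 0.79 ± 0.26) and E2f1 (0.34 ± 0.13) had an unadjusted p under 0.05, PCNA was at 0.07 ± 0.26 and stg at 0.19 ± 0.23. In simulated counts 89% of genes past the filter with a log2 change of 1 were recovered, and 99% of those with a log2 change of 2. The simulation set that change between the labelled kinds of cell and did not model cells that express CycB without a UMI. It therefore does not measure the power of this split. At 3000 UMIs a CycB UMI was found in 27.9% of MeOH GMC and 39.0% of MeOH NB, and in 41.3% of fresh GMC and 42.0% of fresh NB.

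The 35 genes lie on all large chromosomes of the annotation (build dm6, Ensembl gene models): 12 on 2R, 7 on 2L, 7 on 3R, 6 on 3L and 3 on X, where 2 are replication genes and none is a mitosis gene. E2f1, with mir-11 and mir-998, and sti, with a long noncoding RNA, overlap other genes on the same strand, and for none of the 35 does another gene of that strand cover the 3′ end at which the UMIs were counted.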

How the data were processed

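Droplet 3′ libraries of larval brain cells, 1 methanol-fixed and 1 fresh, were deposited by the authors as UMI count matrices with a table of cells that gives the annotation and, for the MeOH library, the line. Cell Ranger, Seurat and build dm6 are named per the submitters' processing notes; versions and further steps are not given in the sources used here. Cells are those of the deposited table, whose mitochondrial percentage per cell, as deposited by the authors, was read only to describe the classes. No doublet caller was run, and 1 matrix row without a gene name (3 UMIs per library) was left out. The libraries share 12 barcodes, 11 of them among the cells.

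The members and gene lists were chosen with earlier results of these data known. The genes named beyond the members are the 5 called genes of the pathway lists with the lowest p in each comparison; tacc and grp were named after their values were seen. Numbered clusters counted as neurons where at least 3 of 11 neuronal markers reached 2 times their level in the named non-neuronal cells. Clusters 1 and 31 also passed this rule and were left unnamed by choice.

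Counts were summed per line and class (at least 10 cells) or per line and kind of cell (at least 5), and tested with edgeR 4.0.16 (R 4.3.3): TMM scaling, filterByExpr, quasi-likelihood test, line as block, Benjamini-Hochberg adjustment over all genes tested. The same line numbers on both sides of a comparison are the same line in the same library, so the lines pair the sums. How many animals each line stands for is not given in the sources used here, and p-values measure the spread between lines within 1 library. The fresh library has no replicate and no test. DESeq2 1.42.0, no filter, thinned counts, other cell minimums, left-out lines and a fit without the block were alternatives. The fits were tested on simulated data for genes past the filter. There 86% (NB and GMC against neurons), 99% (GMC against NB), 97% (PCNA split) and 89% (CycB split) of genes changed by a log2 of 1 were recovered. The simulation did not model cells that express PCNA or CycB without a UMI. Its rates therefore do not measure the power of either split, nor do they cover genes under the filter. Sums, shares and intervals were computed in Python 3.11.15 with scipy 1.17.1; thinning draws a fixed number of UMIs from each cell without replacement.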

Additional observations from a re-analysis of the deposited data

Results flagged for a closer look

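Among 114 sets of 7 lines, 4 held 1 line far from the others, where chance gives about 1 in 20. Cdk1 had 30.8 CPM in neurons of DGRP-502, on 28 UMIs, with the other lines between 10.1 and 18.6 CPM. PCNA had 56.3 CPM in neurons of DGRP-382, on 28 UMIs, with the others between 40.7 and 47.2 CPM. Mcm5 had 77.4 CPM in GMC of DGRP-409, on 6 UMIs, with the others between 8.73 and 37.4 CPM. geminin had 66.7 CPM in GMC of DGRP-382, on 4 UMIs, with the others between 132 and 177 CPM.

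Barcodes in the matrices but outside the deposited cell table entered no comparison, and they held both gene groups. In the fresh library 76 such barcodes, with a median of 40565 UMIs, had 2137 CPM of the replication group and 1771 CPM of the mitosis group, against 962 and 950.4 CPM in the cells of the table. In the MeOH library 1192 such barcodes, with a median of 3094 UMIs, had 1076 and 1034 CPM, against 933 and 856 CPM in the cells of the table.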

How the results depend on the processing

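Over the class comparisons, cell splits, group levels and shares, 147 recomputed values stayed close to the reported ones and 49 moved; of the values for single genes 903 kept their direction and their side of the threshold, 12 lost and 2 gained a call, and 36 changed sign, all of them in genes called neither before nor after. Close allowed a margin for counts of called genes. With cells thinned to 2000 UMIs, 22 genes could be tested between progenitors and neurons, and all 22 were higher in NB and GMC. There 1575 of the 2535 genes tested were called in either direction. Without the filter 18 genes were lower in GMC than in NB. These counts were taken as close to the 32 and 12 reported. Without the replicate block of the lines the counts were those reported: 32 genes higher in NB and GMC than in neurons, 12 lower and 1 higher in GMC than in NB, 3 higher with a PCNA UMI and 0 with a CycB UMI. Leaving out 1 line at a time gave 32 to 33 higher in NB and GMC, 11 to 13 lower and 1 higher in GMC, and 2 to 3 higher with PCNA.

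GMC against NB gave 6 lower genes at 2000 UMIs per cell, where 9 could be tested, and 3 lower and 0 higher in central brain cells. With at least 20 cells per line and class 8 of the 12 lower genes were called, and 11 in all.

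Between GMC and NB the log2 difference of stg was -0.019 with DESeq2, -0.024 with its size factors, -0.076 without the filter, -0.045 with at least 20 cells, -0.034 at 2000 UMIs and -0.56 in optic lobe cells. With at least 20 cells it was 0.21 for Cdk1, 0.052 for Dp, -0.0066 for scra, 0.49 for CycB and -0.12 for tum; it was 0.044 for Cdk1 at 2000 UMIs and 0.30 for Dp in central brain cells. Leaving out 1 line at a time gave -0.11 to 0.11 for stg, -0.20 to 0.0028 for CycA, -0.0969 to 0.051 for Cdk1, -0.38 to 0.083 for CycB and -0.11 to 0.15 for tum. In the PCNA split Cdk1 had 0.17 without the filter and -0.26 to 0.092 over the left-out lines. In the CycB split PCNA had -0.014 with DESeq2, -0.12 without the filter, -0.15 with line and class as blocks, -0.21 at 2000 UMIs and -0.18 in NB only; dUTPase had 0.042 at 2000 and 0.11 at 5000 UMIs, and Cdk1 -0.18 at 5000 UMIs. Over the left-out lines PCNA had -0.14 to 0.20, dUTPase -0.14 to 0.024 and stg -0.066 to 0.38.

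The PCNA split gave 7 higher and 1 lower with DESeq2, 12 higher and 1 lower without the filter, and 0 with line and class as blocks, where no member passed the filter.

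With clusters 1 and 31 as neurons, the replication group had 514 (MeOH) and 314 (fresh) CPM in neurons and the mitosis group 419 and 226 CPM. In the fresh library, leaving out the 10% of cells with the fewest and the 10% with the most UMIs gave the mitosis group 3304 CPM in GMC, 4001 in NB, 2987 in Lamina and 214 in neurons, and the replication group 5182 in NB and 894 in Lamina; the mean of per-cell CPM gave the mitosis group 3192 in GMC and 222 in neurons.

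The shares of cells with a UMI depend on depth. At 3000 UMIs cells below that depth are left out, so that in MeOH GMC the share rests on 68 of 170 cells and is not from the same cells as the unthinned share. At 1000 UMIs, 3000 UMIs and unthinned, the replication group share was 60.6%, 91.2% and 90.0% in MeOH GMC, 30.3%, 64.0% and 69.6% in MeOH neurons, 64.2%, 94.0% and 98.2% in fresh GMC, and 23.7%, 56.6% and 82.3% in fresh neurons, and in fresh NB 94.4% at 1000 UMIs and 100% unthinned. The mitosis group share was 20.7%, 45.6% and 52.8% in MeOH neurons, 17.9%, 44.6% and 72.6% in fresh neurons, 91.3%, 100% and 100% in fresh GMC and 89.5%, 100% and 100% in MeOH NB; in MeOH GMC it was 89.4% at 1000 and 98.5% at 3000 UMIs, and in fresh NB 92.3% at 1000 UMIs.

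The PCNA split at 5000 UMIs and within GMC or NB alone, and the CycB split within GMC alone, were not run, since no line had 5 cells of both kinds. Low counts leave 10 of the 35 genes untested between GMC and NB, and 1 library per condition allows no test between MeOH and fresh cells.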
